A study of Mus musculus with 12 samples.

Results

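The cytosolic ribosomal proteins were represented on the Affymetrix Mouse 430A array by 99 probe sets for 47 genes, out of 20380 probe sets that the platform annotation assigns to exactly 1 gene. A probe set was included when its gene symbol named a protein of the large subunit (Rpl), of the stalk (Rplp) or of the small subunit (Rps), and the ribosomal S6 kinases and pseudogenes were left out. The large subunit contributed 46 probe sets for 26 genes and the small subunit 53 probe sets for 21 genes. A further 102 probe sets whose annotation lists a ribosomal protein together with other genes fell outside the rule. Rpl5, Rpl3, Rpl10, Rplp1 and Rps27a had no probe set of their own under the rule, and no value is given for them.

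The 3 cell populations, with 4 arrays each, were sorted from hind limb muscle of 8 to 12 week old C57BL/6J mice. Quiescent satellite cells, the resting stem cells of muscle, carried the surface antigen SM/C-2.6, were collected directly after sorting and were more than 97% Pax7-positive. Activated satellite cells were the same sorted fraction after 4 days in DMEM with 20% FCS and 2.5 ng/ml bFGF, with MyoD in more than 99% of cells. The non-myogenic population lacked SM/C-2.6 and CD45, were also taken directly after sorting, and held less than 1% myogenic cells. No gene was altered in any group and none received another agent. Only the activated cells were cultured, so activation, culture and time outside the muscle cannot be told apart. Nothing in the labels ties an array to a mouse or a pool of mice, so p-values measure the spread between these arrays, which may be technical. Biotin labelling used a small-sample kit for 2 quiescent, 2 activated and 1 non-myogenic array and a two-cycle kit for the other 7 arrays.

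The cytosolic ribosome joins a small subunit, which binds the mRNA and decodes it, to a large subunit, which forms the peptide bond. Its proteins are needed in matched amounts, and the mRNAs of vertebrate ribosomal proteins are among the most abundant in most cells. Most of them begin with a terminal oligopyrimidine (TOP) tract, a run of C and T bases at the transcription start through which mTOR signalling and LARP1 control their translation, so mRNA level and protein output can part from each other. Several genes have paralogues with a narrower expression, such as Rpl3l in striated muscle and Rpl39l in the testis.

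Promoters of these genes are shown because 19 of the 42 searched carry a C/T run near the start, as counted below. RefSeq start sites on GRCm38.p6 were found for 42 of the 47 genes, and 7 genes had several starts, of which the most 5′ was used. Each line spans 35 bases before to 20 bases from the start, on the strand of the gene, and capitals mark a run of at least 8 C or T bases near the start. Rps6, Rplp2 and Rps9 stand for the promoters with such a run. Rpl14, Rps27 and Rpl27a, which have one too, stand for genes that moved apart from the others. The Rpl27a line also has TCGCGAGA in capitals, which is TCTCGCGA read on the other strand, a motif searched below.
Rps6, chr4:86857348-86857402, minus strand: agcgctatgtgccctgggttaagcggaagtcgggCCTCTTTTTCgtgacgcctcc
Rplp2, chr7:141447616-141447670, plus strand: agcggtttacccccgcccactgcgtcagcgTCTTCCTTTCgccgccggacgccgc
Rps9, chr7:3704006-3704060, plus strand: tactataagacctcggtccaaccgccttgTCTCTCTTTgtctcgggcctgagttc
Rpl14, chr9:120571482-120571536, plus strand: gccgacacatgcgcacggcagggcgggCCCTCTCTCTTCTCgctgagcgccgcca
Rpl27a, chr7:109519160-109519214, plus strand: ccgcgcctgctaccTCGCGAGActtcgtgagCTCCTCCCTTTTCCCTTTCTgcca
Rps27, chr3:90213629-90213683, minus strand: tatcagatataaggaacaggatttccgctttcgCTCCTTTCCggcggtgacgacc

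The paralogues and Rps19 are shown for contrast. The Rps27l line has both a C/T run and CCGGAAGT, the core of the ETS-family site that GABP binds, in capitals. The Rps19 line has each match to TCTCGCGA on either strand in capitals, and the Rpl7l1, Rpl3l and Rpl39l lines have none of these elements where each was searched. A further C/T stretch of the Rpl39l line begins outside the 20 bases searched and is not in capitals.
Rps27l, chr9:66946051-66946105, plus strand: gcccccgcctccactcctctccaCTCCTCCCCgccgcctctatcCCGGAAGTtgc
Rps19, chr7:24884557-24884611, plus strand: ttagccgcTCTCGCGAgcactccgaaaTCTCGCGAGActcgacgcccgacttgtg
Rpl7l1, chr17:46782637-46782691, minus strand: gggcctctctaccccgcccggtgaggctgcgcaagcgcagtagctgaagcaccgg
Rpl3l, chr17:24727791-24727845, plus strand: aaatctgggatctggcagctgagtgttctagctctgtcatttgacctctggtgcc
Rpl39l, chr16:10170193-10170247, plus strand: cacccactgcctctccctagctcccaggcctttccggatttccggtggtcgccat

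A C/T run of at least 8 bases within 20 bases of the start, read on the gene's strand, was present in 19 of the 42 ribosomal protein promoters, or 45.2%, and in 15.9% of the 9882 promoters of all array genes. CCGGAAGT, searched on both strands from 250 bases before to 50 bases from the start, was present in 10 of the 42, or 23.8%, and in 6.71% of all. TCTCGCGA, searched in the same way, was present in 8 of the 42, or 19.0%, and in 1.98% of all. The C/T run and the other elements can overlap. A match describes the letters in this window and is no measured binding site.

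Ribosomal protein mRNAs were among the brightest signals in all 3 populations, and dimmest in non-myogenic cells by the mean of the arrays. Medians and percentiles here are over the 89 probe sets that passed the signal filter given below. As deposited, their median signal was 7388, 4831, 3388 and 4908 on the 4 quiescent arrays, 6286, 6603, 3850 and 4715 on the activated arrays, and 3829, 2175, 2136 and 2436 on the non-myogenic arrays. The quiescent and activated arrays overlapped fully, and the non-myogenic arrays lay lower apart from the small-sample array, which passed 1 quiescent array. The median member stood at the 99.0 to 99.5 percentile of its array in quiescent cells, at the 99.1 to 99.2 percentile in activated cells, and at the 97.1 to 97.9 percentile in non-myogenic cells. All 99 members together took 7.30% ± 1.33 of the summed signal in quiescent cells (SD, n = 4), 5.84% ± 1.49 in activated cells and 4.10% ± 0.597 in non-myogenic cells. These SDs include a gap between kits. Small-sample arrays had 6.0% and 6.3% against 8.39% and 8.5% in quiescent cells, and 4.43% and 4.68% against 7.0% and 7.24% in activated cells. The 1 small-sample array of non-myogenic cells had 3.26% against 4.12% to 4.64%.

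The level assigned to these genes depends on how the arrays are made comparable. The arrays differed in overall brightness, with a 2% trimmed mean (the mean without the lowest and highest 2% of probe sets) of 323 to 502 for the small-sample kit and 160 to 236 for the two-cycle kit. Signals below are scaled to a common trimmed mean of 235, and differences come from limma on log2(scaled signal + 14.7) with group and kit in the fit. The kit is taken out of each difference, so it can depart slightly from the gap between group means. After scaling, the median of the same 89 members was 4607, 3515, 4966 and 6088 on the quiescent arrays, 3236, 3096, 5096 and 5155 on the activated arrays, and 1860, 2179, 2648 and 2432 on the non-myogenic arrays. All non-myogenic arrays were then below all satellite cell arrays, and the activated arrays fell into pairs by kit. Of the 99 members, 89 from all 47 genes passed the filter of a mean scaled signal of at least 47.0, and 12072 probe sets were tested in all.

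**Figure D1:**
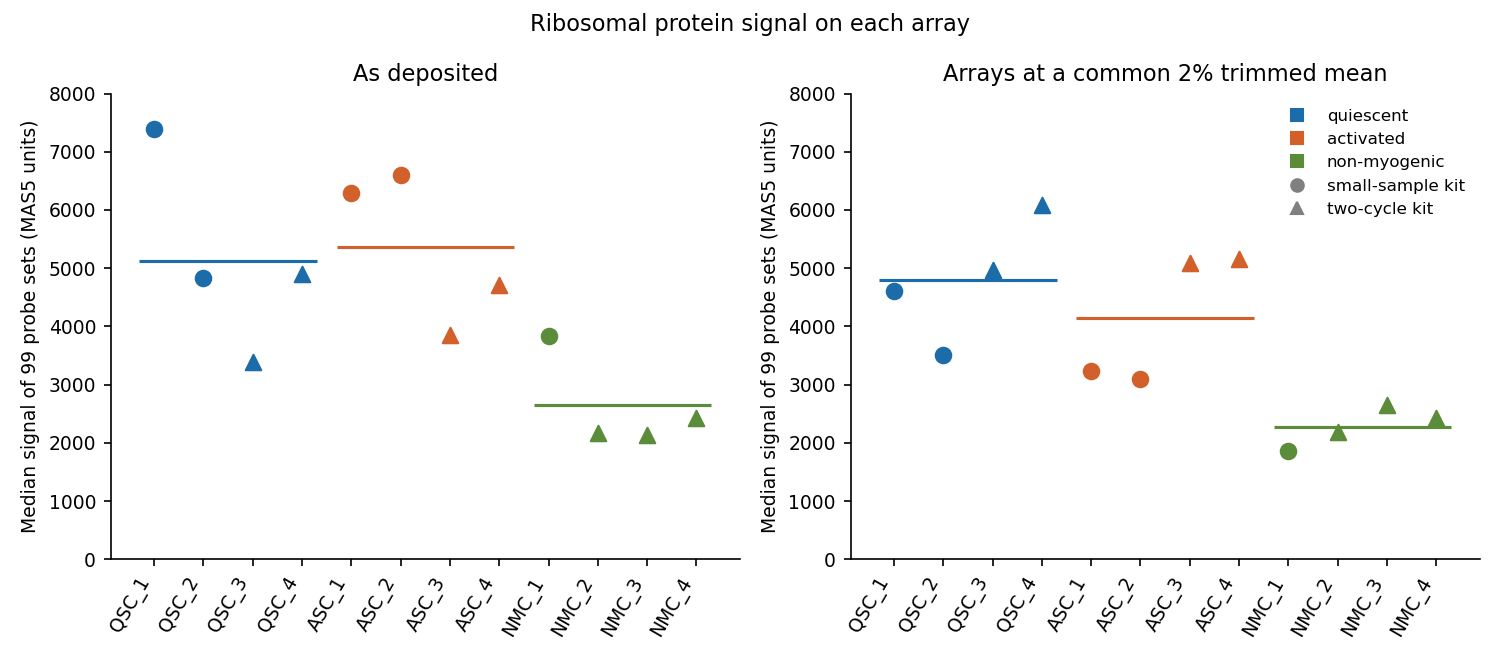
Median signal of the 89 ribosomal protein probe sets that passed the signal filter on each of 12 arrays, in MAS5 signal units, as deposited (left) and with arrays at a common 2% trimmed mean (right). The axis label gives 99, the number before the filter. Points are arrays, shapes are labelling kits and lines are group means. After scaling the non-myogenic arrays sit between 1860 and 2648, below the other 8 arrays.

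Between activated and quiescent satellite cells, ribosomal protein signals did not move as 1 block, and the direction of their median turned with the scaling. With a common trimmed mean, 50 of 89 probe sets were called lower in activated cells and 9 higher at an adjusted p under 0.05, while 37.6% of all probe sets tested were called lower and 30.7% higher. The members' median difference was -0.40 on the log2 scale, against -0.12 over all probe sets tested. With median centring, which sets the middle of each array equal, the members' median difference was 0.060, and 9 members were called lower and 15 higher, against 23.9% and 45.6% of all. Without scaling, 15 were lower and 11 higher with a median of -0.09, against 26.2% and 37.7% of all. Quantile normalization gave 31 lower and 10 higher, against 31.5% and 34.1%, with a median of -0.21. The 75th percentile gave 49 lower and 9 higher, against 36.9% and 31.4%, with a median of -0.38. Cyclic loess gave 57 lower and 7 higher, against 35.5% and 31.6%, with a median of -0.44.

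The scalings shifted all probe sets along with the members. The median difference of all probe sets tested ranged from -0.12 with the trimmed mean to 0.32 with median centring. Relative to that median, the members' median was -0.28 with the trimmed mean, -0.26 both with median centring and without scaling, -0.28 at the 75th percentile, -0.24 with quantile normalization and -0.39 with cyclic loess. The members' median therefore lay below that of all probe sets under each of the 6 scalings, while its sign turned.

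**Figure D2:**
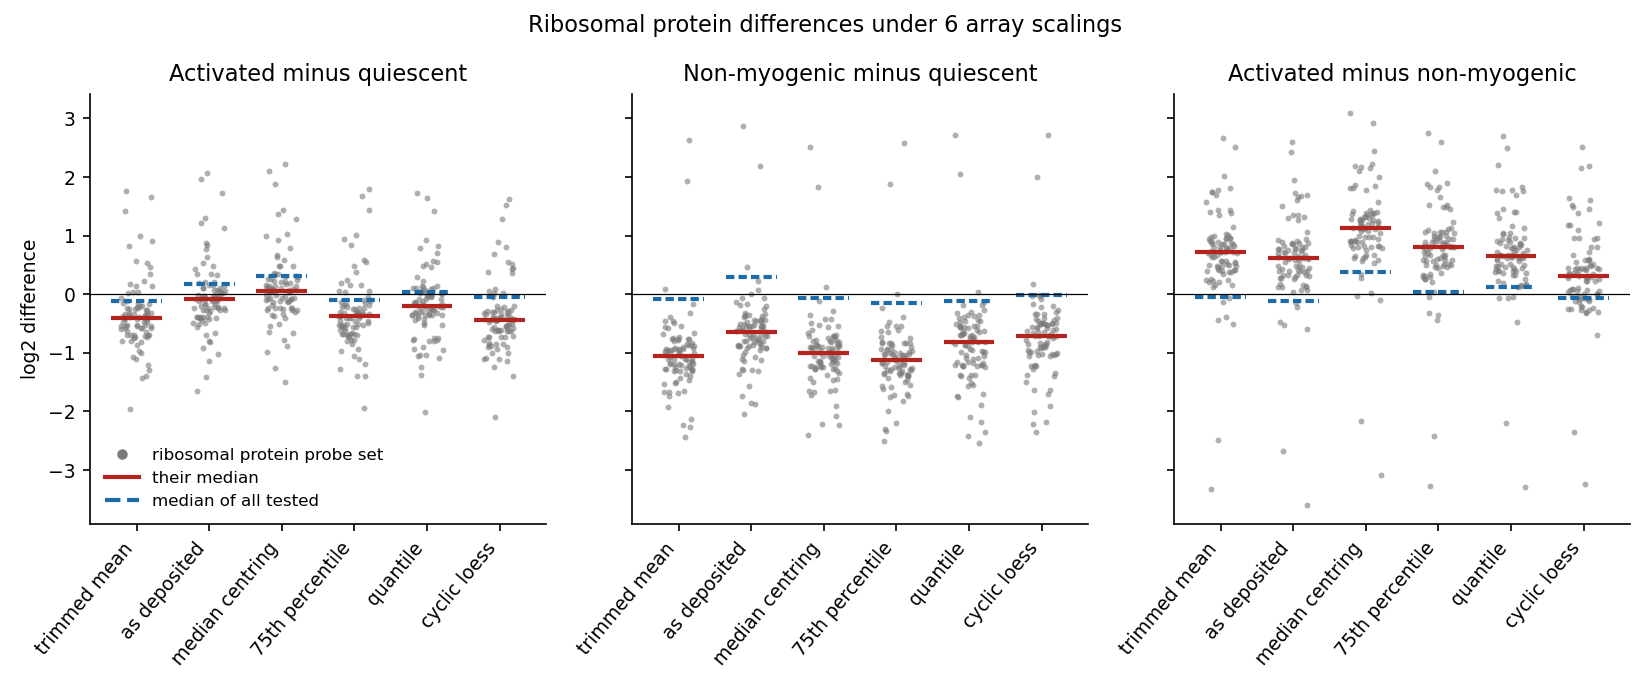
Log2 difference of each of the 89 ribosomal protein probe sets tested (grey points), their median (red) and the median of all 12072 probe sets tested (blue dashes), under 6 array scalings and in 3 comparisons. Activated minus quiescent, the red median lies at -0.40 with the trimmed mean and at 0.060 with median centring, so its sign turns. Non-myogenic minus quiescent, it lies between -1.12 and -0.65.

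A subset of genes kept its call between activated and quiescent cells under all 6 scalings. There were 9 probe sets of 8 genes called lower each time, as were 23.6% of all probe sets tested, and 7 probe sets of 4 genes called higher each time, as were 28.8% of all. The genes lower each time were Rpl12, Rpl27a, Rpl37, Rpl3l, Rps27 and, through 1 or 2 of several probe sets, Rpl22, Rpl41 and Rps24. The genes higher each time were Rps27l, Rpl14, Rpl7l1 and, through 1 of its probe sets, Rpl13a. With 89 members tested, neither count is above the share of all probe sets, and nothing is read from the counts themselves. The arrays of activated and quiescent cells did not overlap for 21 of the 89 probe sets, 14 with activated cells lower and 7 with activated cells higher, against 51.3% of all probe sets tested.

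Among the proteins of the stalk, which recruits elongation factors to the large subunit, changes at the trimmed mean were near the members' median of -0.40. Rplp0 was at 6813, 7611, 12847 and 13573 in quiescent cells and at 5151, 5127, 10836 and 10661 in activated cells. Within each kit the activated arrays were lower, but the groups overlapped. The difference was -0.39 ± 0.13 (SE, adjusted p = 0.0166) and turned to 0.067 with median centring and 0.006 with quantile normalization. Rplp2 behaved alike at -0.42 ± 0.13 (adjusted p = 0.0111), with 0.035 under median centring. Without the 2 small-sample activated arrays neither was called (adjusted p = 0.212 for Rplp0 and 0.158 for Rplp2).

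The large subunit held both the strongest fall and most of the rises, with 14 of 26 genes lower and 3 higher at the trimmed mean, against 37.6% and 30.7% of all probe sets tested, taking the brightest probe set of each gene. Rpl12, which lies at the base of the stalk, was at 432, 692, 348 and 364 in quiescent cells and at 162, 163, 137 and 161 in activated cells. The groups did not overlap, and the signal fell 2.68-fold (log2 difference -1.42 ± 0.18, adjusted p = 1.1e-05). Rpl14 was at 415, 334, 639 and 495 in quiescent cells and at 853, 671, 977 and 1058 in activated cells. Every activated array exceeded every quiescent one, and the signal rose 1.89-fold (0.92 ± 0.15, adjusted p = 9.16e-05).

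Rpl27a went from 85.5, 112, 188 and 148 in quiescent cells to 31.5, 67.4, 41.0 and 40.7 in activated cells, a fall of 2.44-fold (-1.29 ± 0.21, adjusted p = 0.000112). These levels lie close to the filter of 47.0, where the pseudocount reduces the fold. Rpl37 was at 1067, 548, 227 and 272 in quiescent cells and at 500, 336, 98.5 and 79.5 in activated cells. Both groups were split by kit and overlapped, and the difference within the fit was -1.11 ± 0.22 (adjusted p = 0.000596). Rpl10a, at 6723, 7028, 10427 and 9768 against 3971, 3462, 7015 and 6708, fell by 0.72 ± 0.14 (adjusted p = 0.000347) and was not called with median centring. Rpl27 was at 4585, 2443, 2966 and 5725 in quiescent cells and at 4714, 4111, 7320 and 5949 in activated cells. It was called higher by 0.53 ± 0.23 with an adjusted p of 0.0498, and the arrays overlapped. Leaving out any of 9 single arrays (all but quiescent arrays 1 and 4 and activated array 2) lost this call, with adjusted p from 0.0587 to 0.179, as did a replicate block (adjusted p = 0.0597). Rpl11, which with Rpl5 and 5S rRNA can bind the p53 regulator Mdm2, was at 4453, 3351, 4966 and 6062 against 3223, 2732, 6384 and 5847 and was not called (-0.11 ± 0.16, adjusted p = 0.54).

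At the trimmed mean the small subunit had 17 of 21 genes called lower and 1 higher, against 37.6% and 30.7% of all, while with median centring the lower count over both subunits fell from 50 to 9 probe sets. Its median over 45 probe sets was -0.52, against -0.31 over the 44 of the large subunit, a gap that was not tested. Rps19, the protein most often mutated in Diamond-Blackfan anaemia, was at 5305, 4759, 6915 and 9211 in quiescent cells and at 2975, 2455, 4670 and 4805 in activated cells. The groups touched at 1 array, and the difference was -0.82 ± 0.15 (adjusted p = 0.00024). Rps6, the substrate of S6 kinase, was at 1509, 928, 2083 and 1975 against 841, 751, 1058 and 1244, with overlap, and was lower by 0.69 ± 0.17 (adjusted p = 0.00238). Rps19 was not called with median centring, and Rps6 neither then nor without scaling.

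Rps25, which some viral internal ribosome entry sites need, was at 1163, 1150, 1537 and 1123 in quiescent cells and at 707, 574, 691 and 722 in activated cells. The groups did not overlap and the signal fell 1.82-fold (-0.86 ± 0.16, adjusted p = 0.000261), a call lost with median centring. Rps15, a protein of the small subunit head, was at 5843, 5653, 6672 and 8258 against 2938, 2604, 4868 and 5198. Its groups did not overlap either, and it fell 1.75-fold (-0.81 ± 0.15, adjusted p = 0.000317), again not under median centring. Rps4x, the X-linked copy of Rps4, was at 7766, 8983, 16538 and 14771 against 4797, 4881, 10317 and 10175, with the lower values of each group from the small-sample kit. Its difference was -0.70 ± 0.12 (adjusted p = 0.000203) and it lost its call without scaling and with median centring. Rpsa, the laminin receptor protein, was not called at -0.32 ± 0.14 (adjusted p = 0.058).

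Of the paralogues, Rps27l and Rpl7l1 were called in the opposite direction to their partners at the trimmed mean, and Rpl22l1, Rpl39l, Rpl39 and the brighter Rpl22 probe set were not called. No difference between a paralogue and its partner was tested. Rps27l, a p53-inducible paralogue of Rps27, was at 1080, 764, 535 and 635 in quiescent cells and at 2690, 2532, 2222 and 1915 in activated cells. No arrays overlapped, and the signal rose 3.14-fold (1.65 ± 0.16, adjusted p = 7.19e-07). The other two Rps27l probe sets rose by 1.77 ± 0.24 and 1.42 ± 0.15. Rps27 itself was at 195, 133, 138 and 208 in quiescent cells and at 105, 64.7, 87.8 and 41.8 in activated cells, also without overlap, and fell 2.10-fold (-1.07 ± 0.26, adjusted p = 0.00242). Signals of different probe sets are not set against each other as levels.

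Rpl7l1, a paralogue of Rpl7 found in pre-ribosomes, rose on both of its probe sets. On the brighter it went from 396, 508, 553 and 552 to 703, 688, 897 and 716 (0.57 ± 0.13, adjusted p = 0.00193), and on the other from 248, 293, 447 and 377 to 600, 559, 769 and 809 (0.99 ± 0.13, adjusted p = 1.26e-05). Neither probe set had overlapping groups. Rpl7 was lower by 0.58 ± 0.14 (adjusted p = 0.002), a call lost without scaling and with median centring. Rpl22l1, the paralogue of Rpl22, was at 2181, 1372, 3542 and 3758 against 1539, 1461, 2518 and 2692 and was not called (-0.34 ± 0.19, adjusted p = 0.119).

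Rpl3l, which replaces Rpl3 in ribosomes of striated muscle, was at 33.7, 26.1, 31.7 and 25.6 in quiescent cells and at 3.14, 0.563, 3.18 and 1.20 in activated cells. It fell by 1.39 ± 0.23 (adjusted p = 0.000111) on the log2(signal + 14.7) scale, which understates the fold of such low signals. All 8 of these values lie below the filter, which Rpl3l passed only through the non-myogenic arrays, where it was highest. Rpl39l was at 1.86 to 20.6 in quiescent cells and at 3.45 to 15.9 in activated cells and was not called (0.15 ± 0.23, adjusted p = 0.576). Rpl39 was not called either (-0.35 ± 0.20, adjusted p = 0.137).

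**Figure D3:**
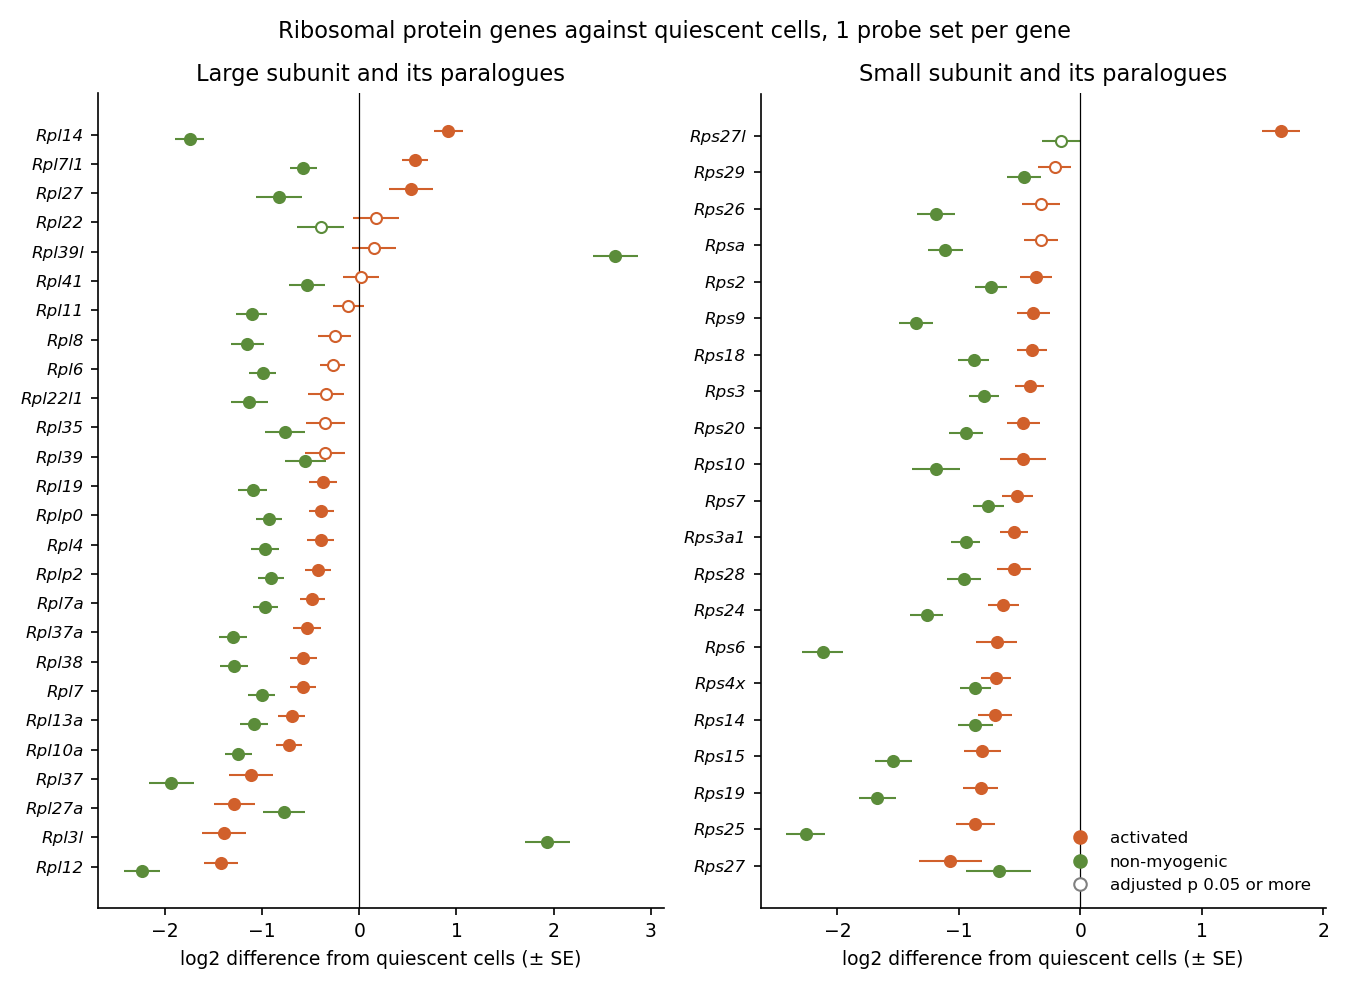
Log2 difference ± SE from quiescent cells for the 47 ribosomal protein genes, 1 probe set each, in activated (orange) and non-myogenic (green) cells with arrays at a common trimmed mean. Open points have an adjusted p of 0.05 or more. Of 47 genes, 31 are lower and 4 higher in activated cells, and 43 are lower and 2 higher in non-myogenic cells. The activated minus quiescent median changes sign with median centring.

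Both groups of this comparison had 2 arrays of each kit, but a Gapdh measure of RNA quality, given below, differed between them. Within the small-sample kit the members' median difference was -0.55 (2 arrays against 2), and within the two-cycle kit it was -0.29 (2 against 2), against -0.05 and -0.18 over all probe sets tested. The interaction of kit and group was called for 0 of 89 members by limma (7 at an unadjusted p under 0.05), and for 4.66% of all probe sets tested. The ratio of the Gapdh 3′ to 5′ control probe sets, which rises as labelled RNA gets shorter, was 3.06 to 5.36 on the quiescent arrays, 1.40 to 2.14 on the activated arrays and 3.27 to 5.24 on the non-myogenic arrays. The same ratio for actin was 1.69 to 4.09, 1.26 to 1.92 and 1.44 to 2.28 in that order, so by actin the groups overlapped. The part of either ratio in the differences was not tested. The brightest members lay near the top of the scale: 10 to 30 members on each quiescent array, 2 to 19 on each activated array and 0 to 3 on each non-myogenic array had a deposited signal over 10000, where the highest signals of any probe set were 15415 to 19935. Whether such signals saturate was not tested. Of the 30 brightest members tested, 22 were called lower and 0 higher, and of the 30 dimmest, 15 lower and 7 higher. Over all probe sets tested, 37.6% were lower and 30.7% higher. No share was taken over other probe sets of like brightness, and nothing is read from these counts.

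Between non-myogenic and quiescent cells, nearly all ribosomal protein signals were lower, and this direction held under every scaling tried. With the trimmed mean, 81 of 89 members were called lower and 2 higher in non-myogenic cells, against 27.4% and 24.0% of all probe sets tested. The members' median difference was -1.05, or 2.07-fold lower, against -0.08 over all. Without scaling 63 were lower, against 10.9% of all, and 2 higher, against 35.3%. Median centring gave 81 lower and 2 higher (26.1% and 23.8% of all), the 75th percentile 82 and 2 (30.6% and 21.6%), quantile normalization 77 and 2 (29.7% and 23.4%) and cyclic loess 72 and 2 (23.8% and 26.4%). The members' median ran from -1.12 to -0.65 over the 6 scalings. In all 6 scalings 63 members of 37 genes were lower, against 10.9% of all, and 2 were higher, against 21.4%. The arrays did not overlap for 60 of 89 members, 58 lower and 2 higher, against 38.0% of all. In such bulk samples, fewer cells of a type and less RNA per cell cannot be told apart, and the non-myogenic fraction is a mixture.

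Both subunits shared this shift, with medians of -1.04 for the large and -1.11 for the small subunit. In the stalk, Rplp0 was at 4128, 5973, 7242 and 7157 in non-myogenic cells (-0.93 ± 0.13 against quiescent cells, adjusted p = 7.04e-05) and Rplp2 at 4704, 6733, 7846 and 7553 (-0.91 ± 0.13, adjusted p = 8.39e-05). Rplp0 overlapped the quiescent arrays and Rplp2 did not. In the large subunit, Rpl12 was at 118, 54.9, 76.0 and 61.4, all below the quiescent arrays, and 4.71-fold lower (-2.24 ± 0.18, adjusted p = 4.34e-07). Rpl14 was at 118, 156, 140 and 136, again without overlap, and 3.35-fold lower (-1.75 ± 0.15, adjusted p = 6.46e-07). Rpl11 was at 1715, 2851, 2768 and 2550 and lower by 1.11 ± 0.16 (adjusted p = 7.73e-05), also below every quiescent array.

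In the small subunit, Rps25 was at 236, 245, 215 and 327 and 4.79-fold lower than in quiescent cells (-2.26 ± 0.16, adjusted p = 1.12e-07). Rps6 was at 261, 496, 373 and 474 and 4.35-fold lower (-2.12 ± 0.17, adjusted p = 3.63e-07). Rps19 was at 1313, 3061, 2511 and 2695 and 3.19-fold lower (-1.67 ± 0.15, adjusted p = 1.03e-06). None of these 3 genes overlapped the quiescent arrays, and for Rps6 and Rps19 the small-sample array was the lowest. Rps4x, at 4711, 8232, 8738 and 8893, was lower by 0.86 ± 0.13 (adjusted p = 7.73e-05) with overlap.

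Only Rpl3l and Rpl39l were called higher in non-myogenic cells, and both are paralogues. Rpl3l was at 110, 218, 243 and 104, above every satellite cell array, with a difference from quiescent cells of 1.94 ± 0.23. Rpl39l was at 130, 121, 131 and 109, likewise above all others, with a difference of 2.63 ± 0.23. Both passed the signal filter only through this group, so the test had to find them high there. Rps27l, at 663, 538, 656 and 578, was not called (-0.16 ± 0.16, adjusted p = 0.426), and neither was Rpl22 on its brighter probe set (-0.40 ± 0.24, adjusted p = 0.191).

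**Figure D4:**
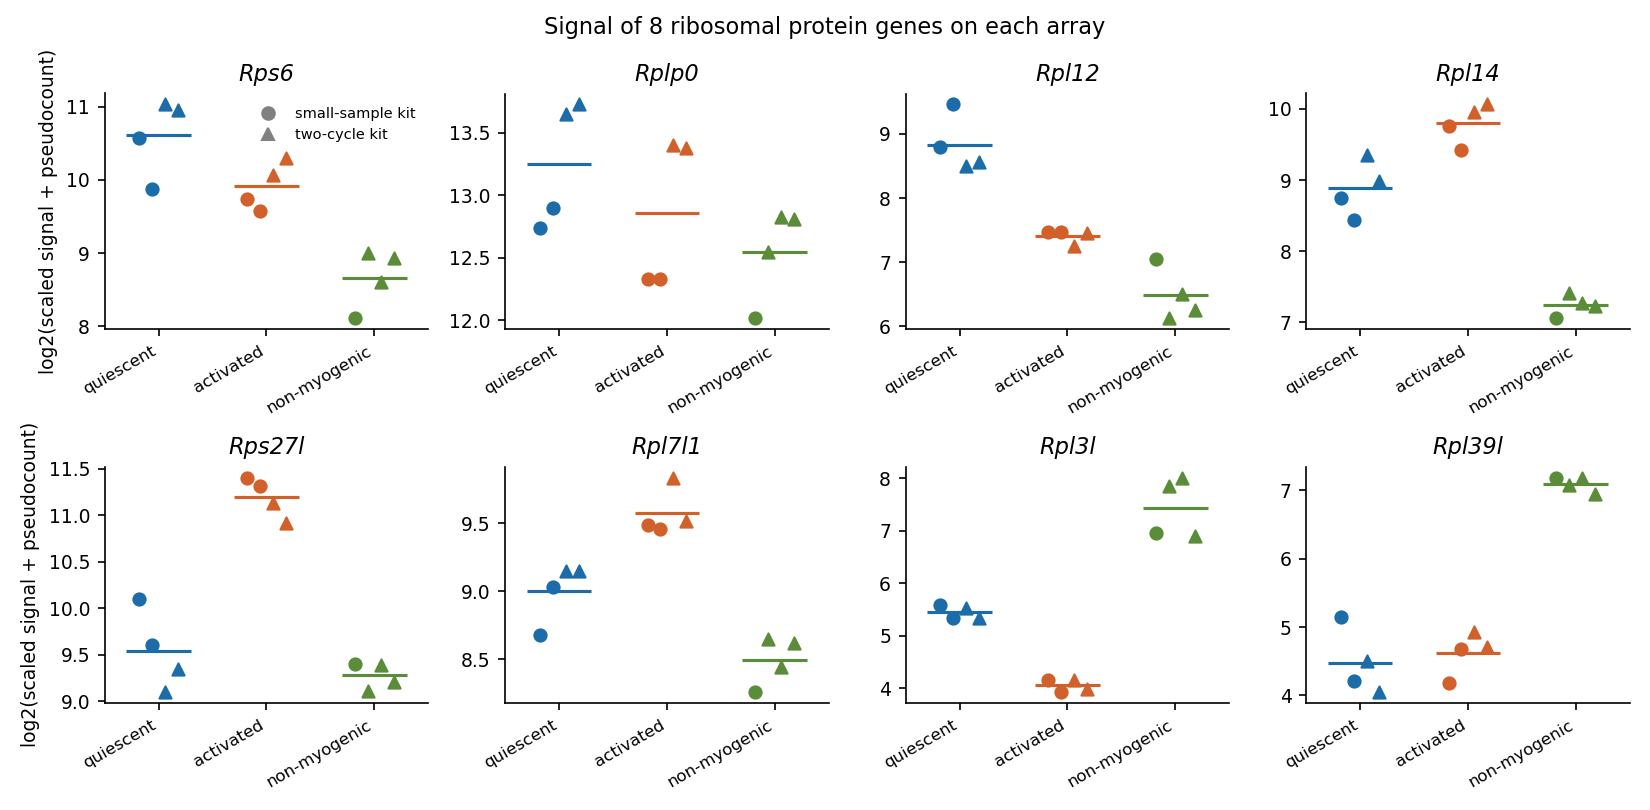
Log2(scaled signal + pseudocount) of 8 ribosomal protein genes on each of 12 arrays. Points are arrays, shapes are labelling kits and lines are group means; each panel has its own scale, so panels show differences within a gene. Rps27l, Rpl14 and Rpl7l1 are highest in activated cells, Rpl3l and Rpl39l in non-myogenic cells, and Rps6, Rplp0 and Rpl12 in quiescent cells by group mean. The order of quiescent and activated means of Rplp0 turns with median centring and quantile normalization.

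Markers of other cell types differed between the same groups. The summed signal of 10 myofibre markers was 10799 to 34283 on the non-myogenic arrays, 2414 to 8128 on the quiescent arrays and 1096 to 11330 on the activated arrays, and 6 of 10 were called higher in non-myogenic than in quiescent cells. All 10 fibroblast markers were called higher in non-myogenic cells, with sums of 48669 to 94565 against 14342 to 35929 in quiescent and 1497 to 1959 in activated cells. Of 10 endothelial markers 9 were called higher, with sums of 13187 to 15590 against 3135 to 6383 and 80.5 to 131. All 9 satellite cell and myoblast markers were lower in non-myogenic cells, with sums of 1231 to 1390 against 15110 to 21557 in quiescent and 8030 to 9776 in activated cells. Mean signals of the myosin Myh4 were 1461 in non-myogenic and 2.20 in activated cells. Over all probe sets tested, 24.0% were called higher and 27.4% lower in non-myogenic than in quiescent cells. The part of these other cells in the ribosomal protein differences was not tested.

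Between activated satellite and non-myogenic cells, most ribosomal protein signals were higher in the activated cells, in a number that depended on the scaling. With the trimmed mean 69 of 89 members were called higher and 4 lower, against 34.1% and 35.9% of all probe sets tested, with a median of 0.72 against -0.04 over all. Median centring gave 82 higher and 2 lower, with a median of 1.13 (47.4% and 25.1% of all). Cyclic loess gave 39 higher and 4 lower, with a median of 0.32 (32.8% and 36.3% of all). Without scaling 56 were higher and 3 lower (29.4% and 35.8%), at the 75th percentile 75 and 2 (36.8% and 33.5%), and with quantile normalization 69 and 3 (38.9% and 30.2%). In all 6 scalings 38 members of 20 genes were higher, against 28.3% of all, and Rpl3l and Rpl39l were lower, against 25.0%. Arrays did not overlap for 38 of 89 members, 36 of them higher in activated cells, against 58.4% of all. This comparison shares its arrays with both others and gives no separate evidence on either.

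In a separate fit with 1 probe set per gene, 31 of 47 genes were lower and 4 higher in activated than in quiescent cells (38.2% and 31.8% of 7960 tested). In that fit 43 were lower and 2 higher in non-myogenic than in quiescent cells (26.4% and 26.6%), and 37 were higher and 3 lower in activated than in non-myogenic cells (34.1% and 38.3%).

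Genes already described stood out between activated and non-myogenic cells too. Rpl14 was 6.33-fold higher in activated cells (2.66 ± 0.15, adjusted p = 2.7e-09). Rps27l was 3.51-fold higher (1.81 ± 0.16, adjusted p = 2.43e-07) and Rps6 was 2.69-fold higher (1.43 ± 0.17, adjusted p = 5.13e-06). Rpl11 was 1.99-fold higher (0.99 ± 0.16, adjusted p = 8.59e-05), although its arrays overlapped. Rps4x did not pass the test (0.17 ± 0.13, adjusted p = 0.253), and its difference turned to -0.31 with cyclic loess. Rpl3l was lower by 3.33 ± 0.23 and Rpl39l by 2.49 ± 0.23, with no overlap. Both passed the signal filter only through the non-myogenic arrays and lay below it in activated cells, so their lower call here was fixed by the filter.

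A comparison of the members with one another removes a factor common to an array, though less fully for signals near the pseudocount of 14.7. After the median of the 89 members was subtracted from each array, 20 members were called lower and 11 higher in activated than in quiescent cells and 58 were not called, while 62.4% of all probe sets tested were called in either direction on this scale. The subtraction centres the members and moves every other probe set by the members' own shift. Shares of all probe sets on this scale, here and below, are therefore no background for the members' counts. Rpl12 stayed lowest of the brightest probe sets at -1.20 ± 0.21, followed by Rpl3l at -1.17, Rpl27a at -1.07 and Rpl37 at -0.89. Rpl3l and Rpl39l, both ranked in this paragraph, passed the signal filter only through the non-myogenic arrays. Both lay below it in quiescent and activated cells, and Rpl27a lay close to it. Rps27l lay highest at 1.88 ± 0.17 (adjusted p = 1.31e-07), followed by Rpl14 at 1.14 ± 0.19 (adjusted p = 8.99e-05), Rpl7l1 at 0.79 and Rpl27 at 0.76. Between non-myogenic and quiescent cells 8 members were lower and 16 higher on this scale, against 82.9% of all. By the brightest probe set of each gene, Rps25 was the lowest there at -1.08, with Rpl12 at -1.05, Rps6 at -0.94 and Rpl37 at -0.75 (a dimmer Rps10 probe set, singled out after its value was seen, lay at -1.25), and the highest besides Rpl39l at 3.81 and Rpl3l at 3.12 were Rps27l at 1.02 and Rpl22 at 0.79. Between activated and non-myogenic cells 10 were higher and 32 lower, against 77.3%.

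Probe sets of the same gene did not always agree. Of 19 genes with at least 2 tested probe sets, 3 differed by more than 1 log2 unit between probe sets in the activated against quiescent comparison. Rpl13a, the component of the GAIT complex, was the only gene with opposite calls. Its brightest probe set went from 6532, 7481, 14336 and 12416 to 4212, 4332, 8090 and 8566 (-0.69 ± 0.14, adjusted p = 0.000579). Another went from 1814, 2363, 1387 and 1590 to 2536, 2740, 3976 and 3370 (0.82 ± 0.19, adjusted p = 0.00155), and a further one rose by 0.47 ± 0.17 (adjusted p = 0.0248). That last call was lost without any of the 4 two-cycle arrays of these groups (adjusted p from 0.0538 to 0.0906) and with a replicate block (0.0549). The remaining probe set was not called (0.03 ± 0.18, adjusted p = 0.888). All 4 were lower in non-myogenic than in quiescent cells, by 0.84 to 1.69.

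Rpl22, which represses its paralogue Rpl22l1, showed the widest gap, of 2.13 log2 units. Its brighter probe set was at 2104, 3190, 1322 and 2308 in quiescent cells and at 3236, 3096, 1837 and 1809 in activated cells and was not called (0.17 ± 0.24, adjusted p = 0.529). The other was at 1940, 1627, 1798 and 1983 against 447, 618, 400 and 412 and was lower by 1.95 ± 0.18 (adjusted p = 6.89e-07), without overlap. Rpl41, the smallest ribosomal protein, was the third gene: its dimmer probe sets were lower by 1.20 ± 0.21 and 0.96 ± 0.17, and its brightest was not called, at 0.02. The dimmer Rpl22 and Rpl41 probe sets were singled out after their values were seen. Of the 99 members, 40 carry the suffix _x_at, which Affymetrix gives to probe sets that may bind other transcripts, and ribosomal proteins have many processed pseudogenes. Which transcript each probe set measured was not tested.

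The genes were also described by their start sequence, with no test. The median difference from quiescent to activated cells was -0.42 for the 19 genes with a C/T run and -0.42 for the 23 without, and that of non-myogenic against quiescent cells was -1.08 and -0.94. The 8 genes with TCTCGCGA (Rpl7a, Rpl12, Rpl27a, Rpl35, Rps3a1, Rps6, Rps19 and Rps28) had medians of -0.62 and -0.96, against -0.39 and -0.98 for the 34 others. The 10 genes with CCGGAAGT had medians of -0.36 and -1.10, against -0.48 and -0.96 for the 32 others. In 4 of the 8 TCTCGCGA genes the motif overlaps its own reverse complement, as in Rps19, a form held by 0.931% of all promoters. Those 4 had medians of -0.76 and -1.90, against -0.40 and -0.96 for the 38 others, so the second median moved with how the motif was defined. The shorter form was chosen after values for the longer one had been seen.

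Other genes of ribosome production are given by their own counts between activated and quiescent cells. Of 20 genes for rRNA transcription and the 5S particle, 11 rose and 3 fell, with a median of 0.58, and 11 rose under all 6 scalings. Rrn3, the factor that brings RNA polymerase I to the rDNA, went from 134 ± 25.0 in quiescent cells to 410 ± 12.6 in activated cells (SD, n = 4; 1.53 ± 0.14 SE). Of 16 chaperone and recycling genes, which include Rpl7l1, 13 rose and 2 fell, with a median of 0.82, and 13 rose under all 6 scalings. Dnajc2, a chaperone that sits on the ribosome, went from 171 ± 9.50 to 978 ± 308 (2.36 ± 0.16 SE), and Grwd1, a relative of the yeast chaperone of Rpl3, rose by 1.38 ± 0.16. Over all probe sets tested the median was -0.12, 30.7% rose and 37.6% fell, and 28.8% rose under all 6 scalings.

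Translation factors and other genes with TOP mRNAs were mixed, with 9 of 23 higher and 8 lower, against 30.7% and 37.6% of all, and a median of -0.02 that ran from -0.15 to 0.44 over the scalings. Eef1e1 went from 341 ± 130 to 1472 ± 273 and rose by 2.11 ± 0.19, and whether its mRNA has a TOP tract was not tested. The elongation factor Eef2 went from 8243 ± 916 to 5083 ± 770 and was lower by 0.70 ± 0.12, a call that was not kept in all 6 scalings. Fau, whose product includes a small subunit protein but whose symbol lies outside the rule, was not called (-0.05 ± 0.22, adjusted p = 0.855). Of 16 upstream regulators 7 fell and 3 rose, with a median of -0.35, against 37.6% and 30.7% of all probe sets tested, which puts both counts near the background. Eif4ebp1, an mTOR-regulated inhibitor of translation initiation, rose by 1.81 ± 0.21 and Mdm2 by 1.71 ± 0.21, while Maf1, a repressor of RNA polymerase III, fell by 1.26 ± 0.13 and the transcription factor Sp1 by 1.55 ± 0.20. These 4 calls held under all 6 scalings.

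In non-myogenic against quiescent cells, all 23 translation factors and TOP genes were lower, with a median of -1.12 that ran from -1.19 to -0.72 over the scalings, and 14 were lower in all 6. Eef1d was lower by 1.62 ± 0.14 and nucleolin, Ncl, by 1.48. Of the rRNA transcription genes 10 of 20 were lower and 0 higher, with a median of -0.42, and of the chaperone and recycling genes 10 of 16 were lower and 1 higher, with a median of -0.49. Over all probe sets tested the median was -0.08, 27.4% were lower and 24.0% higher, and 10.9% were lower in all 6 scalings. Differences between these lists were not tested.

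**Figure D5:**
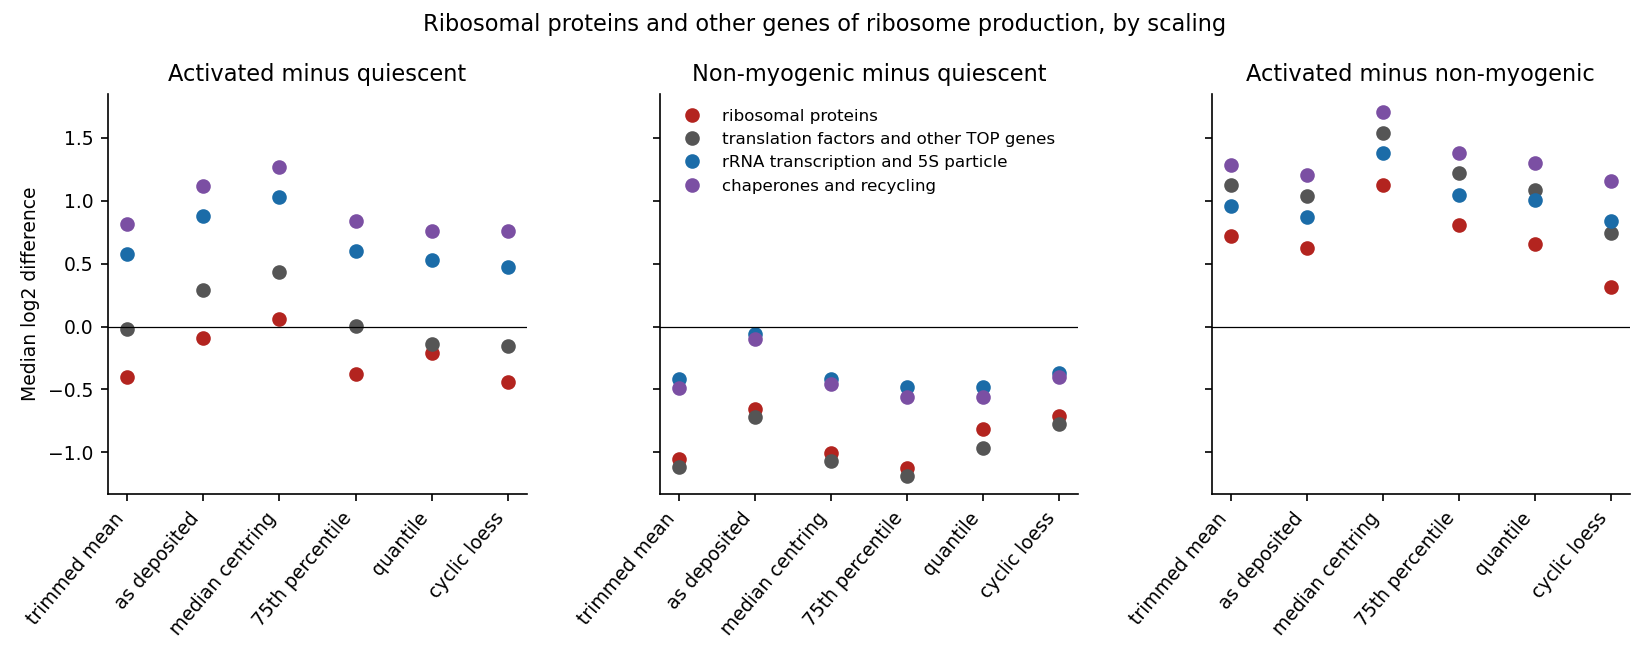
Median log2 difference of ribosomal proteins (89 probe sets) and of 3 other lists (23, 20 and 16 genes, 1 probe set each) under 6 array scalings in 3 comparisons. Between activated and quiescent cells the ribosomal protein median runs from -0.44 to 0.060 and changes sign with median centring, and that of translation factors and TOP genes from -0.15 to 0.44. Between non-myogenic and quiescent cells every median plotted is below 0.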

How the data were processed

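Per the submitters' processing notes the authors used MAS5; the deposited values are linear signal intensities, 1 per probe set and array, on 12 Affymetrix Mouse 430A arrays. The sources used here do not give its version or settings. Probe sets were named through the platform annotation. Arrays were brought to one 2% trimmed mean, and log2(signal + 1/16 of that mean) was fitted with limma 3.58.1 in R 4.3.3 on all 12 arrays, with group and labelling kit as terms. Probe sets of 1 gene with a mean of at least 0.2 of the trimmed mean entered, and Benjamini-Hochberg adjustment ran over all 12072. Same-numbered quiescent and activated arrays deviated together from their group means (r of 0.17 to 0.31 across probe sets), and they also share a kit. With the kit taken out as well, r was -0.51 to -0.14. Whether same-numbered arrays belong together was not tested. A replicate block was fitted beside the kit. The number of arrays limits the precision. The fit was tested on simulated data.

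The members and the gene lists were chosen with earlier results of these data known. Named were the 8 called genes of largest fold per comparison and direction, 10 preset proteins, the paralogues with their partners, genes called alike under all scalings or oppositely by their own probe sets, the 4 furthest from the member median, and up to 4 per other list by smallest adjusted p. Each gene was taken by its brightest probe set. Alternatives covered scaling, pseudocount, filter, kit, replicates and probe set choice. The fit with probe sets of several genes was added after seeing the data. Promoters came from RefSeq, GRCm38.p6.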

Additional observations from a re-analysis of the deposited data

Results flagged for a closer look

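The highest or lowest array of a group of 4 stood apart from the other three by Dixon's criterion in 8 of 132 groups of named probe sets. Chance marks about 1 group in 20. The small-sample array of the non-myogenic cells, the only one of its kit there, was the low one for Rps20 at 2959 (the others 4377 to 4631), Rps3a1 at 4063 (7350 to 7855), Rps4x at 4711 (8232 to 8893) and Rpsa at 4177 (7373 to 8057). Another non-myogenic array was low for Rps10 on its brightest probe set at 2150 (2787 to 2923). The third activated array was low for Rpl12 at 137.3 (161.3 to 163.1) and high for Rpl7l1 at 897.1 (688.3 to 715.7). The third quiescent array was high for Rps25 at 1537 (1123 to 1163). The interaction of kit and group was called for 0 of 89 members by limma in each comparison, with 4 to 7 at an unadjusted p under 0.05.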

How the results depend on the processing

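For activated against quiescent cells, the count of lower members, 50, became 15 without scaling, 9 with median centring, 31 with quantile normalization, 21 without the kit term, 24 on small-sample arrays alone, 28 without the 2 small-sample activated arrays, 31 with 1 probe set per gene and 11 with _at members alone; the higher count, 9, became 15 with median centring, 5 on small-sample arrays and 4 with 1 probe set per gene or _at members alone. The median, -0.40, was 0.060 with median centring. The main fit tested 89 members, against 47 with 1 probe set per gene, 22 with _at members alone and 77 with a filter at the trimmed mean. Counts under those settings in this paragraph are out of fewer members, so a smaller count there is not by itself a smaller share. Over all 12072 probe sets tested, the lower count, 4540, became 3910 without the kit term and 3169 on small-sample arrays alone. It was 4185 without the 2 small-sample activated arrays. The higher count over all, 3708, became 2709 on small-sample arrays alone. For non-myogenic against quiescent cells, the lower count, 81, became 32, 43 and 18 on small-sample arrays, with 1 probe set per gene and with _at members, the higher count 0 with a filter at the trimmed mean, and the median -0.65 unscaled and -0.71 with cyclic loess. For activated against non-myogenic cells, the higher count, 69, became 39 with cyclic loess, 40 without the kit term, 19 on small-sample arrays, 37 with 1 probe set per gene and 14 with _at members; the lower count, 4, was 1 or 2 under 5 settings, and the median 1.13 with median centring and 0.32 with cyclic loess. Over all probe sets, small-sample arrays alone took the lower count of non-myogenic against quiescent cells from 3309 to 830. The higher count of activated against non-myogenic cells, 4120, became 2489 there and 3674 without the kit term. Leaving out 1 array at a time gave 42 to 54 lower and 7 to 9 higher (median -0.45 to -0.35), 78 to 83 and 2 (-1.14 to -1.01), and 2 to 4 lower and 62 to 71 higher (0.67 to 0.78). The 2 lower came without any activated or non-myogenic array but the second of each. Over all probe sets it gave 4241 to 4526 lower and 3486 to 3698 higher, 2885 to 3340 and 2603 to 2858, and 4017 to 4439 and 3850 to 4205.

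Over the 89 members, those below 0 went from 72 to 39 with median centring between activated and quiescent cells, and from 7 to 23 with cyclic loess between activated and non-myogenic cells. Among the named probe sets called under either setting, the sign turned in the first case for Rpl19 (0.084), Rpl4 (0.060), Rplp0 (0.067), Rplp2 (0.035), Rps18 (0.059) and Rps9 (0.070), and with quantile normalization it turned for Rplp0 (0.006) and Rps18 (0.011). In the second case it turned for Rpl13a (-0.073), Rpl7 (-0.025), Rps28 (-0.068), Rps3a1 (-0.077) and Rps4x (-0.31). The cause was not tested.

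A replicate block beside the kit gave 46 lower and 7 higher, 76 and 2, and 4 and 61. In place of the kit it gave 38 and 7, 74 and 2, and 3 and 50. Over all 12072 probe sets, the block beside the kit gave 4324 lower and 3492 higher, 2584 and 2364, and 4018 and 3742. In place of the kit the block gave 4164 and 3380, 3024 and 2540, and 3917 and 3887. Beside the kit it ended 10 calls of named probe sets and no other: Rpl27, Rpl13a, Rpl19 and Rpl4 (activated against quiescent), Rpl27a, Rpl39 and Rps27 (non-myogenic against quiescent), and Rpl13a, Rpl7 and Rps28 (activated against non-myogenic).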

Other observations

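The 102 probe sets whose annotation lists a ribosomal protein with other genes were fitted with all probe sets but controls, of which 13085 were tested, after the data had been seen. Of the 96 that passed the filter, 65 were called lower and 2 higher in activated than in quiescent cells with the trimmed mean, with a median of -0.48, against 37.9% and 30.7% of all. With median centring 8 were lower and 10 higher, with a median of 0.011, against 23% and 46.5% of all. In non-myogenic against quiescent cells 93 were lower and 1 higher, with a median of -1.11, against 28.3% and 23.7% of all.

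Rps4l, left out because RefSeq lists it as a transcribed pseudogene, had scaled signals of 294 to 368 in non-myogenic cells, 38.8 to 103 in quiescent cells and 108 to 142 in activated cells, with no overlap between the groups; it was not tested. The 3′ control probe set for 18S rRNA, as deposited, was at 1633 to 2600 in quiescent, 1717 to 2493 in activated and 1386 to 2070 in non-myogenic cells.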
